A study of Mus musculus with 4 samples.

Results

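Type I interferon response genes are the transcripts that cells raise when interferon alpha or beta reaches its receptor. Members were chosen by name: 36 interferon-stimulated genes were listed, and 35 of them were found by symbol among the 16442 genes measured. Ifi44 was not analysed here. Levels of ribosome footprints and of input RNA were available for each gene in 4 libraries of mouse leukaemia stem cells taken from bone marrow. Footprints are the stretches of mRNA that ribosomes shield from nuclease, and input RNA is the undigested RNA of the same lysates. The 2 KO-labelled libraries are given as knockouts of Rreb1, a zinc finger transcription factor, and the other 2 libraries are wild type (WT). The labels give C57BL/6, bone marrow and leukemia for all 4. The genotype label of KO replicate 2 reads Rreb2-KO, and its title placed it with the KO libraries. The animals behind each library, the deleted part of Rreb1 and the way the leukaemia was made are not stated in the labels. The p-values below therefore cover only the spread between these libraries, which may be technical.

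Type I interferons bind a receptor made of the Ifnar1 and Ifnar2 chains, whose kinases Jak1 and Tyk2 phosphorylate Stat2. Phosphorylated Stat2 acts in a complex with Irf9 that binds the interferon-stimulated response element, ISRE, in front of its target genes. The products sense or destroy foreign nucleic acids, hold back translation and virus entry, and dampen the signal again. In blood-forming stem cells the pathway is known to affect dormancy and self-renewal.

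Upstream sequences of 6 members are shown because they hold matches of the response element and belong to genes with both large and small RNA differences. RefSeq promoter windows of GRCm38.p6, 250 bases before to 50 bases after the annotated start, were found for 26 of the 35 genes. The core of the element, GAAA followed by 2 bases of any kind and GAAA again, was searched on both strands and was present in the windows of 13 of these 26 genes, and in 10 of them the match lay upstream of the start. Over all 27025 genes with a window, the same core was present for 3.99%. In the stretches below, printed 5′ to 3′ along the gene's strand, capitals mark every match of the ISRE core, which reads TTTC, 2 bases and TTTC where it lies on the other strand. Overlapping matches run together.
Isg15: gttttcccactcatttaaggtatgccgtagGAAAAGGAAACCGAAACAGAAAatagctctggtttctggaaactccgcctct
Ifit1: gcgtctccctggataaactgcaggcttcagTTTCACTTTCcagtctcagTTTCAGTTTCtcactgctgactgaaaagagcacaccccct
Ifit3: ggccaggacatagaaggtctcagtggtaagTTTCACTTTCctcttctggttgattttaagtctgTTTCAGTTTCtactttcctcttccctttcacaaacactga
Rsad2: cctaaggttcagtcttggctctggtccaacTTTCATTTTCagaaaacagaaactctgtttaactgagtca
Bst2: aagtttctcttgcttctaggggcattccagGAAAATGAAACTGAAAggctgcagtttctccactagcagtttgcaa
Oas1a: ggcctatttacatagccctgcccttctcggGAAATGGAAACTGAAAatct
The Isg15 stretch lies at chr4:156200845-156200926 on the minus strand and holds 3 overlapping matches, the first beginning 78 bases before the start. The Ifit1 stretch lies at chr19:34640755-34640843 on the plus strand, and the Ifit3 stretch at chr19:34583343-34583446 on the plus strand, with 2 separate matches each. The 104 bases shown for Ifit3 were identical upstream of Ifit3b, its neighbouring copy, at chr19:34607739-34607842. The Rsad2 stretch lies at chr12:26456533-26456602, that of Bst2 at chr8:71537557-71537632 and that of Oas1a at chr5:120907526-120907575, all on the minus strand. A match is a description of letters and not a measured binding site. The RNA log2 difference, KO-labelled minus WT, had a median of 1.26 over the 13 genes with a match, 0.92 over the 13 with a window and no match, and 1.20 over the 9 genes without a window. Oas1a, with 2 overlapping matches just before its start, was among the members that differed least in RNA.

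Footprint libraries were shallow and unequal, with 364087 and 274183 assigned reads in KO-labelled replicates 1 and 2, and 878068 and 656249 in WT replicates 1 and 2. A single read on a coding sequence of 1 kilobase was worth 2.75 and 3.65 RPKM (reads per kilobase, scaled to the assigned reads of the library) in the KO-labelled libraries, and 1.14 and 1.52 RPKM in WT. Input libraries held between 17037493 and 19121998 assigned reads. From the lengths the values implied, footprint RPKM was read as per kilobase of coding sequence and RNA RPKM as per kilobase of transcript. Of the implied lengths, 70.8% in footprints and 34.0% in RNA were multiples of 3. Rreb1 itself had footprint levels of 12.9 and 8.19 RPKM in KO-labelled libraries, against 14.1 and 12.8 RPKM in WT, a log2 difference of -0.36 ± 0.39 (SE; adjusted p = 0.672, limma). Its RNA stood at 6.10 and 6.93 RPKM in KO-labelled libraries and at 3.33 and 3.25 RPKM in WT, and was higher in the libraries labelled KO by 0.81 ± 0.10 log2 (adjusted p = 0.00232, limma). RNA of the targeted gene was thus not lower and its footprints were lower on average without a call, so every direction below is between the libraries labelled KO and the libraries labelled WT; reads outside the deleted part would not test the deletion.

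In RNA, 34 of the 35 genes rose and 1, Samhd1, fell in the KO-labelled libraries when all genes were tested without a filter on level (limma on log2(RPKM + 1), Benjamini-Hochberg adjusted p below 0.05). Many other genes moved in the same test, with 25.4% of 16249 genes called higher and 16.1% lower. On the log2(RPKM + 1) scale, a rise of at least 2-fold was called for 20 of the 35 members, against 5.97% of all genes, and of at least 4-fold for 10, against 1.31%. Both KO-labelled libraries lay above both WT libraries for 34 members, as they did for 44.8% of all genes, and below them for Samhd1, as for 28.5%. The median log2 difference was 1.12 over the 35 members. Recovered input reads on the members added up to 2630.5 and 2845.4 CPM (reads scaled to library depth alone) in KO-labelled libraries, against 1176.5 and 1210.4 CPM in WT. The implied RNA length of Ifitm3, 226 bases, was shorter than its coding length of 411, so its reads and these sums are likely too low. In bulk libraries, more cells of an interferon-exposed type and more RNA per cell cannot be told apart.

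The values below come from the test of the 12194 genes with at least 1 RPKM of RNA in at least 2 libraries, in which 32.2% were called higher and 21.1% lower and the median log2 difference over all genes was 0.10. With library medians aligned, the calls split into 3139 higher and 3172 lower genes, in place of 3929 and 2568, and 30 members were called higher and 1 lower. Of the 35 members 33 passed this filter, and 6 of them, Ifit1, Ifit3, Ifit3b, Oasl2, Rsad2 and Mx1, passed only through the KO-labelled libraries, so that a difference was built into their selection. Mx2, a dynamin-like GTPase, and Parp14, an ADP-ribosyltransferase, did not pass. Without the filter, Mx2 rose by 0.66 ± 0.14 log2 (adjusted p = 0.0195, limma) and Parp14 by 0.52 ± 0.13 (adjusted p = 0.0302).

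**Figure D1:**
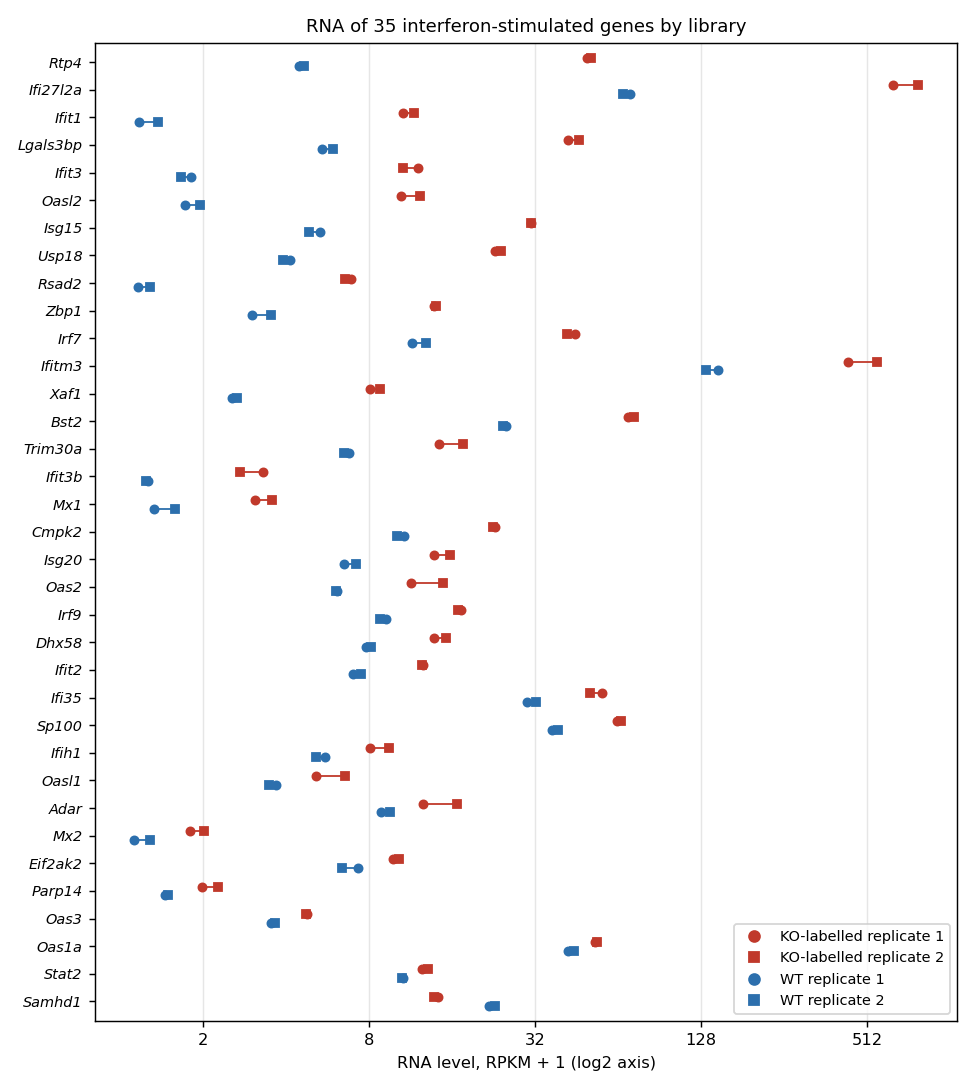
RNA level of each of the 35 genes found, as RPKM + 1 on a log2 axis, in KO-labelled replicates 1 and 2 (red circle and square) and WT replicates 1 and 2 (blue circle and square), ordered by the difference. The red pair lies right of the blue pair for 34 genes, and left of it for Samhd1 at the bottom.

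Among the transcription factors of the response, all 3 members rose in RNA. Irf7, which amplifies the transcription of interferon genes, had 43.6 and 41.0 RPKM of RNA in KO-labelled libraries, against 10.4 and 11.9 RPKM in WT. The groups were well apart, at a log2 difference of 1.83 ± 0.09 (SE; adjusted p = 0.000141, limma). Irf9, the DNA-binding subunit of the complex with Stat2, had 16.2 and 15.9 RPKM in KO-labelled libraries and 8.25 and 7.79 RPKM in WT. It was higher with no overlap (0.92 ± 0.07 log2, adjusted p = 0.000608, limma). Stat2 moved least of the 3, by 0.27 ± 0.07 (adjusted p = 0.0266, limma), and its call ended when each library was centred on its median (0.17, adjusted p = 0.112).

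The IFIT family, whose proteins bind foreign RNA and block its translation, included some of the lowest WT levels of the set. Ifit1 had 9.67 and 10.7 RPKM of RNA in KO-labelled libraries, against 0.177 and 0.373 RPKM in WT. These came from 473 and 482 input reads in KO-labelled libraries and from 9 and 18 in WT. The ratio of the mean levels was 36.9, and the log2(RPKM + 1) difference, which understates such low genes, was 3.13 ± 0.12 (SE; adjusted p = 9.74e-05, limma). Ifit3 had 11.0 and 9.65 RPKM in KO-labelled libraries and 0.809 and 0.663 RPKM in WT. It was 14.0-fold higher, again without overlap (2.71 ± 0.11 log2, adjusted p = 0.000107). Ifit3b shares near-identical stretches with Ifit3, so how reads were split between them is uncertain; Ifit2 rose least of the 4, by 0.79 ± 0.08 log2.

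Both members of the ISG15 pathway rose by similar amounts. Isg15, a ubiquitin-like modifier, had 29.9 and 30.1 RPKM of RNA in KO-labelled libraries, against 4.31 and 3.84 RPKM in WT (2.61 ± 0.08 log2, adjusted p = 4.98e-05, limma). Usp18, which removes Isg15 from its targets and also restrains the receptor, had 21.9 and 23.0 RPKM in KO-labelled libraries and 3.15 and 2.92 RPKM in WT (2.54 ± 0.08 log2, adjusted p = 5.32e-05). Replicates of each group were close together for both genes, and the groups did not overlap. The RNA sensors Ifih1 (MDA5) and Dhx58 (LGP2) rose by 0.71 ± 0.11 and 0.86 ± 0.09 log2.

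All 5 OAS family members were called higher in RNA, by amounts that ran from 0.30 to 2.62 log2. OAS enzymes make oligoadenylates that switch on the ribonuclease RNase L. Oasl2, an OAS-like protein, had 9.46 and 11.3 RPKM in KO-labelled libraries, against 0.730 and 0.959 RPKM in WT (2.62 ± 0.13 log2, adjusted p = 0.000161, limma). Oas1a was already abundant in WT: it had 51.8 and 52.6 RPKM in KO-labelled libraries and 41.3 and 43.2 RPKM in WT. The groups did not overlap, but the rise was only 1.24-fold (0.30 ± 0.06 log2, adjusted p = 0.0104), and with library medians aligned it was 0.20 and not called (adjusted p = 0.0590). Oas3 (0.41 ± 0.09), Oasl1 (0.70 ± 0.15), which in mouse cells holds back translation of Irf7 mRNA, and Oas2 (1.09 ± 0.14) lay between. The Oas1 genes of the mouse are close copies of each other, so reads assigned to Oas1a are uncertain.

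Among the other RNA and DNA effectors, 7 of the 8 tested rose. Rsad2 (viperin), which makes a chain-terminating nucleotide, had 5.89 and 5.56 RPKM of RNA in KO-labelled libraries, against 0.169 and 0.292 RPKM in WT (2.45 ± 0.11 log2, adjusted p = 0.000139, limma). Cmpk2, a nucleotide kinase encoded beside Rsad2, had 21.9 and 21.6 RPKM in KO-labelled libraries and 9.77 and 9.11 RPKM in WT (1.12 ± 0.07 log2, adjusted p = 0.000318). The neighbours therefore differed in WT level, and both were higher in every KO-labelled library. Zbp1, a sensor of left-handed nucleic acid that can start necroptosis, had 12.8 and 13.0 RPKM in KO-labelled libraries and 2.02 and 2.53 RPKM in WT (2.09 ± 0.11 log2, adjusted p = 0.000184). Adar, which edits adenosine to inosine in double-stranded RNA, had 11.6 and 15.8 RPKM in KO-labelled libraries and 7.84 and 8.55 RPKM in WT. Its KO-labelled libraries were above both WT libraries but spread widely (0.66 ± 0.15 log2, adjusted p = 0.0168). Mx1 (1.20), Isg20 (1.11), an RNA exonuclease, and Eif2ak2 (0.55), the kinase PKR, also rose.

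Samhd1, which breaks down deoxynucleotides, was the exception. It had 13.2 and 12.8 RPKM of RNA in KO-labelled libraries, against 20.8 and 21.9 RPKM in WT. Both KO-labelled libraries were below both WT libraries, at -0.67 ± 0.07 log2 (SE; adjusted p = 0.00129, limma). Its footprints differed in the same direction, as given below.

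Ifitm3, Bst2 and Lgals3bp make membrane and secreted proteins, and all 3 rose in RNA. Ifitm3, which blocks fusion of viruses with endosomes, had 435 and 557 RPKM in KO-labelled libraries, against 147 and 133 RPKM in WT (1.81 ± 0.13 log2, adjusted p = 0.000521, limma). Bst2 (tetherin), which holds budding virus at the cell surface, had 68.7 and 72.3 RPKM in KO-labelled libraries and 24.0 and 23.4 RPKM in WT (1.53 ± 0.06 log2, adjusted p = 9.68e-05). Lgals3bp, a secreted glycoprotein that binds galectin, had 41.3 and 45.1 RPKM in KO-labelled libraries and 4.43 and 4.91 RPKM in WT (2.96 ± 0.08 log2, adjusted p = 4.17e-05). In each case the lower KO-labelled library was at least 2-fold above the higher WT library.

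Among the nuclear, ligase and other factors, all tested members rose in RNA. Ifi27l2a, a small hydrophobic membrane protein, reached 637 and 784 RPKM of RNA in KO-labelled libraries, against 70.0 and 65.6 RPKM in WT (3.36 ± 0.11 log2, adjusted p = 6.29e-05, limma). Rtp4, a chaperone of membrane receptors, had 48.6 and 50.02 RPKM in KO-labelled libraries and 3.48 and 3.64 RPKM in WT, which was 13.8-fold higher (3.46 ± 0.07 log2, adjusted p = 1.96e-05). Replicates of Rtp4 lay close together in both groups. Sp100, a component of nuclear bodies, had 62.2 and 64.5 RPKM in KO-labelled libraries and 35.8 and 37.8 RPKM in WT (0.77 ± 0.06 log2, adjusted p = 0.000652). Ifi35 had 55.2 and 49.5 RPKM in KO-labelled libraries and 28.9 and 31.4 RPKM in WT (0.78 ± 0.08 log2, adjusted p = 0.00147). Xaf1, an antagonist of an apoptosis inhibitor, rose by 1.70 and the ubiquitin ligase gene Trim30a by 1.26.

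Leaving out 1 library in turn kept between 27 and 32 of the 33 calls and turned no direction. The calls lost in at least 1 of those fits were those of Stat2, Oas1a, Oas3, Oasl1, Adar and Eif2ak2, all among the smaller differences. A fit without 1 library takes the lone remaining library of its group to vary like the other group.

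Genes that act upstream of the response were looked at through lists of the receptor, factors, sensors and regulators. In the same RNA test 32.2% of all genes were called higher and 21.1% lower. Of the interferon ligand and receptor chain list, 4 of 8 genes were measured, and 2 fell and none rose in RNA among those 4; the ligand genes were not analysed here. Ifnar2 had 36.01 and 35.3 RPKM in KO-labelled libraries and 39.0 and 38.9 RPKM in WT (adjusted p = 0.120, limma). Jak1 fell to 24.5 and 24.7 RPKM in KO-labelled libraries, against 35.3 and 37.4 RPKM in WT (-0.54 ± 0.06 log2, adjusted p = 0.00192). Among 7 further transcription factors 1 rose and 4 fell. Irf5, which acts downstream of Toll-like receptors, fell to 15.3 and 15.4 RPKM in KO-labelled libraries, against 61.2 and 61.5 RPKM in WT (-1.93 ± 0.06 log2, adjusted p = 4.69e-05). Of 10 tested sensors and adaptors 4 rose and 4 fell. Unc93b1, with the highest RNA of this list, fell to 129 and 120 RPKM in KO-labelled libraries, against 197 and 199 RPKM in WT (-0.67 ± 0.06 log2, adjusted p = 0.00116, limma). Sting1, the adaptor of cytosolic DNA sensing, had 43.1 and 40.1 RPKM in KO-labelled libraries and 12.2 and 12.3 RPKM in WT (1.68 ± 0.07 log2, adjusted p = 9.82e-05). Of 7 negative regulators 3 rose and 1 fell. The 1 that fell was Ptpn6, with the highest RNA of this list. It had 178 and 171 RPKM in KO-labelled libraries, against 312 and 313 RPKM in WT (-0.84 ± 0.06 log2, adjusted p = 0.0005, limma). Socs1, which inhibits the receptor kinases, rose to 10.5 and 11.0 RPKM in KO-labelled libraries, against 2.91 and 3.22 RPKM in WT (1.53 ± 0.09 log2, adjusted p = 0.000257).

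In a further list of 32 interferon-stimulated genes outside the 36, 27 were tested in RNA, of which 18 rose and none fell, with a median of 0.60 log2. Ly6e, a surface protein that restricts virus entry, had 528 and 478 RPKM in KO-labelled libraries, against 149 and 153 RPKM in WT (1.73 ± 0.08 log2, adjusted p = 0.000121, limma). Slfn2 had 237 and 244 RPKM in KO-labelled libraries and 259 and 264 RPKM in WT and was not called (adjusted p = 0.150). Of 8 tested targets that interferon gamma also induces, 6 rose and 1 fell, with a median of 0.58. Irgm1, a GTPase of that group, had 10.7 and 10.6 RPKM in KO-labelled libraries and 3.64 and 3.81 RPKM in WT (1.3 ± 0.08 log2, adjusted p = 0.000299). These counts stand beside the 32.2% of all tested genes called higher and the 21.1% called lower.

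Markers of other cell types moved with the same groups. All 4 tested T and NK cell markers, of 9 measured, rose in RNA, and their list summed to 437 and 369 RPKM in KO-labelled libraries, against 19.3 and 19.1 RPKM in WT. Most of that sum was Nkg7, a cytotoxic granule protein, with 426 and 356 RPKM in KO-labelled libraries and 15.0 and 14.6 RPKM in WT, and Cd3d, Cd3e and Cd3g, which encode chains of the T cell receptor complex, were below 1 RPKM in every library. Trac, the constant part of the receptor's alpha chain, rose to 2.73 and 3.14 RPKM in KO-labelled libraries, against 1.01 and 1.24 RPKM in WT (adjusted p = 0.00337, limma). The T cell kinase gene Lck rose to 4.17 RPKM in both KO-labelled libraries, against 0.821 and 0.808 RPKM in WT (adjusted p = 0.000393). All 5 tested erythroid markers, of 7, rose, with sums of 421 and 514 RPKM in KO-labelled libraries and 84.6 and 76.4 RPKM in WT. Of the 8 macrophage and monocyte markers 7 fell and 1 rose, with sums of 1854 and 1794 RPKM in KO-labelled libraries and 6222 and 6219 RPKM in WT. Among stem and progenitor markers 4 of 6 rose and none fell, with sums of 159 and 154 RPKM in KO-labelled libraries and 84.6 and 84.3 RPKM in WT. Of the plasmacytoid dendritic cell markers, a cell type known for interferon production, 3 were tested beside Bst2 itself; Tcf4 and Cox6a2 rose and Irf8 fell. All 3 tested stroma and endothelium markers rose, neutrophil markers fell in 4 of 7 and rose in 1, and of 2 B cell markers 1 rose and 1 fell. No measured marker was under 0.1 RPKM in all 4 libraries. In the same RNA test 32.2% of all genes were called higher and 21.1% lower, and the marker counts stand beside these shares. The part of these cell types in the rise of the interferon-stimulated genes was not tested.

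In ribosome footprints the same genes were measured with few reads, and none passed the adjusted threshold. The test covered 6390 genes with at least 20 CPM of recovered reads in at least 2 libraries, and 20 of the 35 members passed this filter, 1 of them, Oasl2, only through the KO-labelled libraries. With limma, 0 of the 20 were called, against 1.06% of all genes tested. At an unadjusted p below 0.05, 5 were higher and 1 lower, against 5.84% and 12.4% of all genes, and limma-voom on recovered reads also called 0. The KO-labelled libraries lay above both WT libraries for 10 of the 20, against 20.5% of all genes, and below both for 1, against 32.1%. Oasl2 is among these 5 and these 10. The median log2 difference of the 20 was 0.41, and that of all tested genes -0.13. The footprint difference was positive for 16 of the 20, against 42.6% of all genes. Oasl2 is among these 16 and enters the median of the 20 as well. Footprint reads on the members, as the smallest whole numbers that fitted the levels, numbered 749 and 840 in KO-labelled libraries and 1568 and 1186 in WT. Scaled to depth these were 2057.2 and 3063.7 CPM in KO-labelled libraries, against 1785.7 and 1807.2 CPM in WT.

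**Figure D2:**
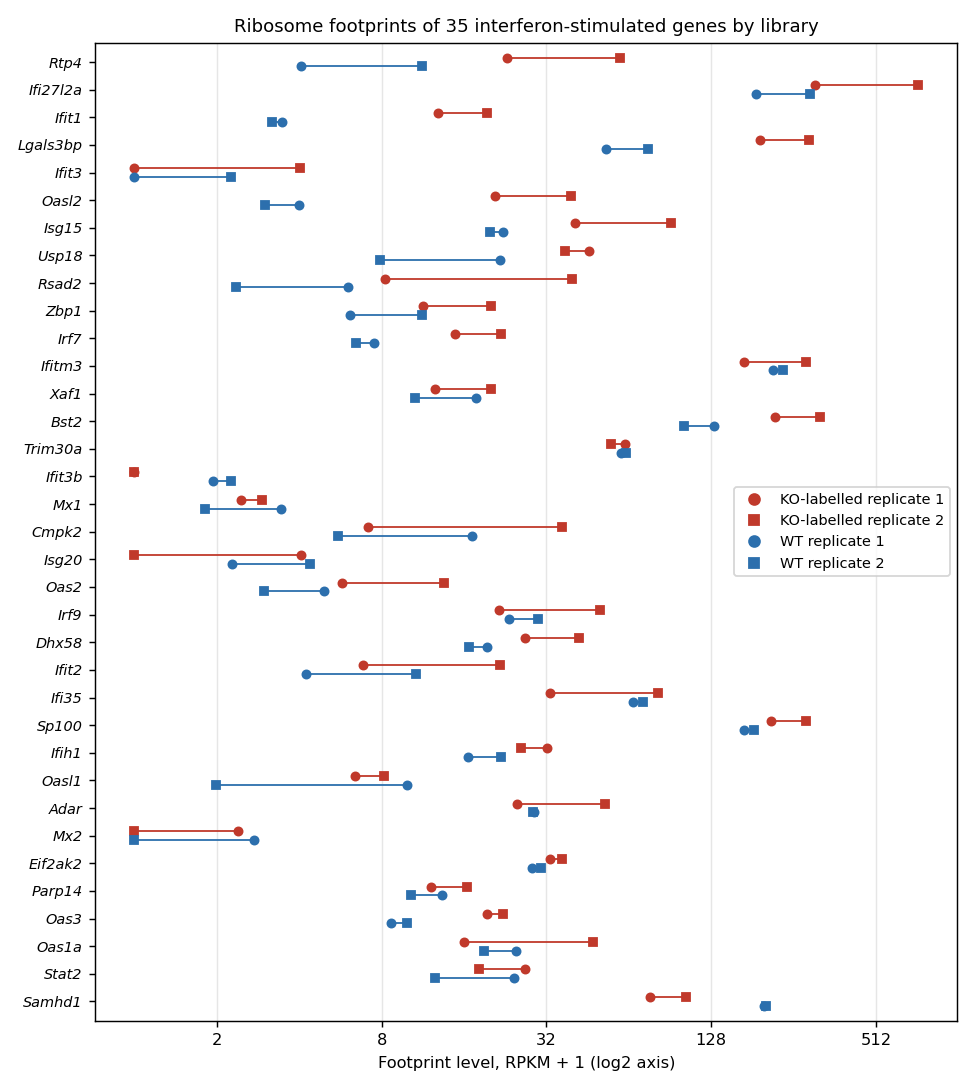
Footprint level of each of the 35 genes, as RPKM + 1 on a log2 axis, with the same colours, symbols and gene order as the plot of RNA levels. Replicates lie further apart than in RNA, KO-labelled replicate 2 is often the highest, and genes without a footprint read stand at 1.

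Lgals3bp had 121 and 138 footprint reads in KO-labelled libraries and 79 and 84 in WT. Its footprint level was 192 and 291 RPKM in KO-labelled libraries, against 52.0 and 73.9 RPKM in WT. The groups did not overlap, and the log2 difference of 1.91 ± 0.36 (SE) had an adjusted p of 0.107 (limma). Oasl2 had 19.8 and 38.2 RPKM in KO-labelled libraries, against 2.98 and 1.996 RPKM in WT, from 11 and 16 reads in KO-labelled libraries and 4 and 2 in WT. Its difference of 3.05 ± 0.48 log2, the highest footprint difference among the 20, had an adjusted p of 0.0745 (limma). Since Oasl2 passed the filter only through the KO-labelled libraries, a higher value was built into its selection. The same holds for Oasl2 in the fits with 1 library left out. Lgals3bp was called when either KO-labelled library was left out, with adjusted p-values of 0.0435 without KO replicate 1 and 0.0423 without KO replicate 2 (limma). Calls over all genes moved as well: 2 of the 20 members were called without KO replicate 1, against 5.18% of all genes, 3 without KO replicate 2, against 17% of all genes, and 0 without either WT library.

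The 3 other members with higher footprints at an unadjusted p below 0.05 were Bst2, Usp18 and Oas3. Bst2 had footprint levels of 218 and 318 RPKM in KO-labelled libraries, against 130 and 100.4 RPKM in WT (1.20 ± 0.33 log2, adjusted p = 0.186, limma). Usp18 had 44.7 and 36.3 RPKM in KO-labelled libraries and 20.6 and 6.90 RPKM in WT (1.66 ± 0.57 log2, adjusted p = 0.240), and its difference ran from 0.93 without WT replicate 2 to 2.39 without WT replicate 1. Oas3, named after its values were seen, had 18.4 and 21.3 RPKM in KO-labelled libraries and 7.65 and 8.90 RPKM in WT (1.17 ± 0.34 log2, adjusted p = 0.195). The KO-labelled libraries were above both WT libraries for all 3 genes.

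Samhd1 was the only one of the 20 with footprints below WT in both KO-labelled libraries. It had 75.7 and 102 RPKM in KO-labelled libraries, against 198 and 201 RPKM in WT, from 57 and 58 reads in KO-labelled libraries and 360 and 273 in WT. The difference was -1.17 ± 0.29 log2 (SE; unadjusted p = 0.0111, adjusted p = 0.162, limma). Without KO replicate 2, where 17% of all genes were called, it was called too, at -1.39 and an adjusted p of 0.0292.

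Footprints of several other abundant members overlapped between the groups. Ifitm3 had 167 and 284 RPKM in KO-labelled libraries and 213 and 234 RPKM in WT (-0.04 ± 0.35 log2, adjusted p = 0.967, limma), although its RNA was 3.55-fold higher. The sign of that footprint difference turned with the scaling (0.02 with library medians aligned). Oas1a had 15.0 and 46.4 RPKM in KO-labelled libraries and 23.8 and 18.0 RPKM in WT (0.34 ± 0.61 log2). Ifi35 had 32.0 and 80.8 RPKM in KO-labelled libraries and 65.0 and 71.0 RPKM in WT (-0.41 ± 0.51 log2). Both spread more between the KO-labelled libraries than between the groups. Irf9 (0.32 ± 0.51), Adar (0.34 ± 0.46) and Cmpk2 (0.73 ± 0.99) overlapped as well, with adjusted p-values from 0.733 to 0.779. Ifi27l2a had 305 and 729 RPKM in KO-labelled libraries, against 186 and 293 RPKM in WT, without overlap and without a call (1.01 ± 0.52 log2, adjusted p = 0.390). Its difference was 0.39 without KO replicate 2 and 1.64 without KO replicate 1. Sp100 had 210 and 283 RPKM in KO-labelled libraries and 167 and 182 RPKM in WT, again without overlap (0.48 ± 0.29 log2, adjusted p = 0.452). Of the rest, Dhx58 (0.89 ± 0.38), Ifih1 (0.61 ± 0.35) and Eif2ak2 (0.24 ± 0.30) were above WT in both KO-labelled libraries without a call, while Stat2 (0.33 ± 0.48), Parp14 (0.27 ± 0.39) and Trim30a (-0.07 ± 0.28) overlapped.

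For the other 15 members footprints were too few to test, and ratios of pooled reads are given with exact intervals that cover counting error only. The interval lay above 1 for 6 of the 15 and held 1 for 9. The share of all genes with such an interval was not computed, so these counts are a description of the members alone. Ifit1 had 6 and 7 reads in KO-labelled libraries and 3 and 2 in WT, a depth-corrected ratio of 6.25 (95% interval 2.09 to 22.4). Rtp4 had 6 and 12 reads in KO-labelled libraries and 2 and 5 in WT, a ratio of 6.18 (2.46 to 17.5). Isg15 had 7 and 12 reads in KO-labelled libraries and 9 and 6 in WT, a ratio of 3.04 (1.47 to 6.44). Rsad2 had 3 and 12 reads in KO-labelled libraries and 5 and 1 in WT (6.01, 2.20 to 18.9), and Irf7 had 7 and 8 in KO-labelled libraries and 8 and 5 in WT (2.77, 1.23 to 6.33). The interval of Oas2 lay just above 1 (2.62, 1.06 to 6.56). Zbp1, with 5 and 7 reads in KO-labelled libraries and 6 and 9 in WT, had an interval that reached below 1 (1.92, 0.822 to 4.40), as did those of Ifit2 (2.03, 0.825 to 4.92) and Oasl1 (1.11, 0.346 to 3.13). Xaf1, whose RNA was 4.63-fold higher, had 4 and 5 reads in KO-labelled libraries and 14 and 6 in WT (1.08, 0.434 to 2.49). Ifit3, whose RNA was 14.0-fold higher, had 0 and 1 footprint reads in KO-labelled libraries and 0 and 1 in WT, so that no footprint difference was detectable at this depth. Ifit3b, Mx1, Mx2 and Isg20 likewise had 4 reads or fewer in every library.

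The KO-labelled libraries differed from each other in these footprints. Of the 20 tested members 16 were higher in KO replicate 2 than in KO replicate 1, with a median difference of 0.57 log2, against 61.0% of all tested genes and a median of 0.22. Between the WT libraries 11 of the 20 were higher in replicate 2, with a median of 0.04, against 58.8% of all tested genes. KO replicate 2 was the shallowest library. The part of depth in this difference was not tested.

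**Figure D3:**
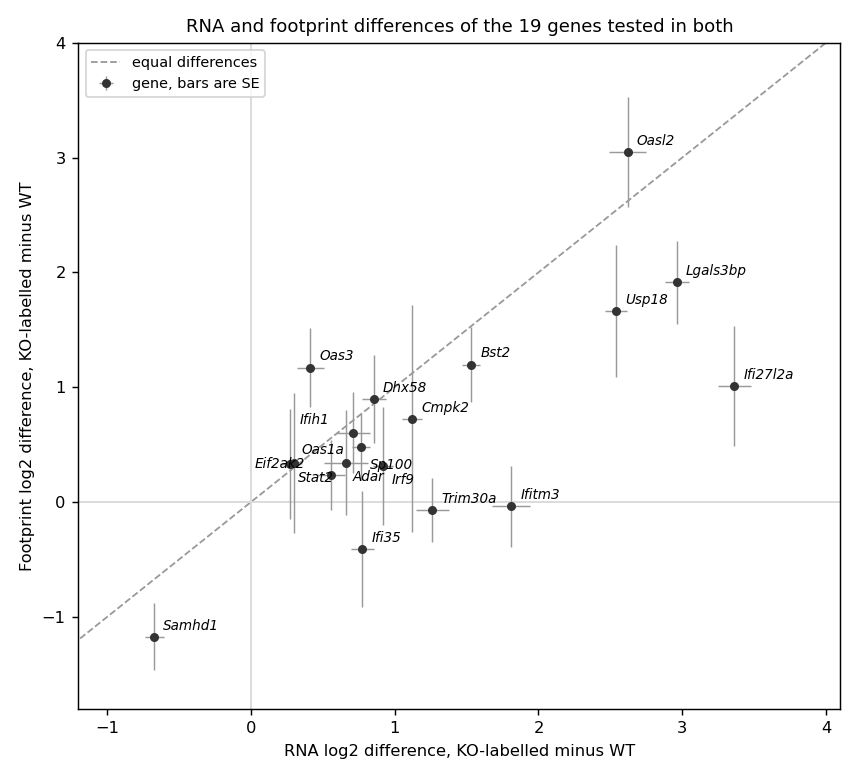
RNA log2 difference (horizontal) against footprint log2 difference (vertical), KO-labelled minus WT, for the 19 genes tested in both, with SE bars and a dashed line where the 2 differences are equal. Of the 19 genes, 14 lie below the line, among them Ifi27l2a and Ifitm3, and Samhd1 is negative on both axes.

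Translational efficiency (TE), the ratio of footprint to RNA level, was not called for any member. With limma, 0 of 20 members and 0% of all 6390 genes were called, and an interaction fitted to recovered reads with limma-voom called 0 members and 33 genes. At an unadjusted p below 0.05, 4 members were lower and 0 higher, against 9.98% and 3.02% of all genes. Both KO-labelled libraries lay below both WT libraries for 9 of the 20, against 32.3% of all genes, and above them for Oas3 alone, against 15.6%. The median log2 TE difference was -0.33 over the 20 members and -0.15 over all genes tested. The TE difference was negative for 15 of the 20, against 59.6% of all genes. The members' median had an SD of 0.297 between replicates, a spread that includes shifts shared by all genes. From KO replicate 1 to 2 the median TE difference was 0.47 over the members and 0.20 over all genes. From WT replicate 1 to 2 it was -0.02 and 0.08. The gap between the 2 medians was not tested against its own spread.

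The 4 members with an unadjusted p below 0.05 in TE were Ifi27l2a, Ifitm3, Trim30a and Lgals3bp. Ifi27l2a had a TE of 0.480 and 0.931 in KO-labelled libraries, against 2.63 and 4.42 in WT (-2.35 ± 0.50 log2, unadjusted p = 0.00546, adjusted p = 0.290, limma). Ifitm3 had 0.385 and 0.511 in KO-labelled libraries and 1.45 and 1.75 in WT (-1.85 ± 0.38 log2, unadjusted p = 0.00473, adjusted p = 0.290). Both KO-labelled libraries were below both WT libraries for each gene. Trim30a, named after its values were seen, had 4.30 and 3.14 in KO-labelled libraries and 8.85 and 9.64 in WT (-1.33 ± 0.34 log2, adjusted p = 0.298). Lgals3bp had 4.56 and 6.32 in KO-labelled libraries and 9.76 and 12.7 in WT (-1.05 ± 0.36 log2, adjusted p = 0.349). Without KO replicate 2 the TE of Ifi27l2a (-2.83), Ifitm3 (-2.05) and Ifi35 (-1.91) passed the adjusted threshold, as did 11% of all genes, and no member did when one of the other libraries was left out (2.33% of all genes without KO replicate 1).

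The 2 measures were related across members, with a Pearson r of 0.70 between RNA and footprint log2 differences over 19 genes. The 2 differences share libraries and a common choice of genes, and the value is a description. Oasl2, which passed both filters only through the KO-labelled libraries, is among the 19 and has the highest footprint difference of them. The correlation without Oasl2 was not computed. The footprint difference was below the RNA difference for 14 of the 19, against 59.5% of the 6294 genes tested in both. RNA enters TE as its denominator, so the RNA and TE differences are not independent measurements.

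**Figure D4:**
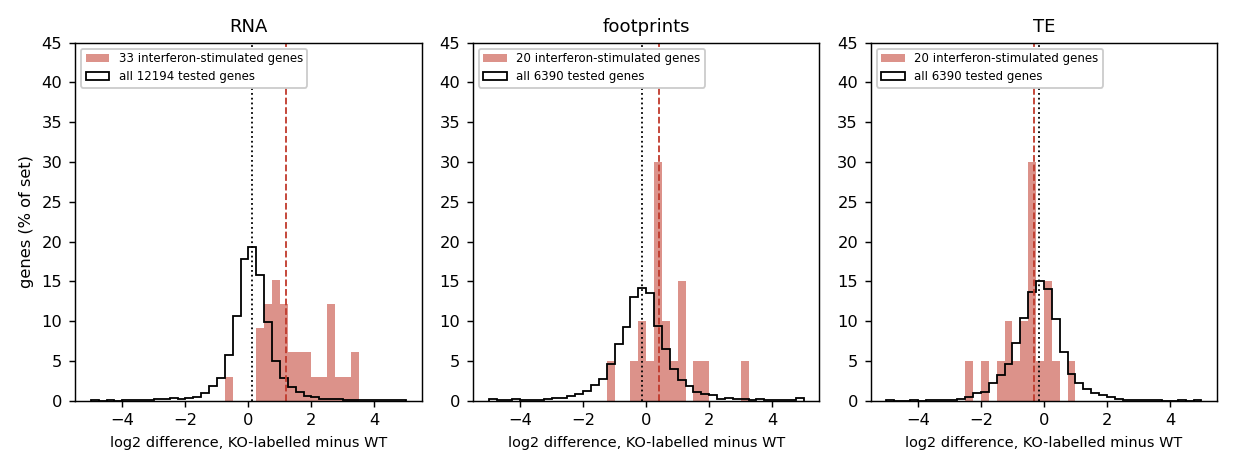
Distribution of the log2 difference, KO-labelled minus WT, in RNA, footprints and TE, for the interferon-stimulated genes tested (red bars) and all genes tested (black outline), as a percentage of each set; values beyond 5 are drawn at the edge. Dashed red and dotted black lines mark the medians, 1.20 and 0.10 in RNA, 0.41 and -0.13 in footprints, and -0.33 and -0.15 in TE.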

How the data were processed

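Ribosome footprints and input RNA were measured in 2 KO-labelled and 2 WT libraries. The authors deposited 1 table that, per the file headers, gives each gene's footprint level, its TE and a p-value, and the deposited p-value was not used. The deposited footprint values behaved as RPKM with 1 added, a unit read from the values. The deposited TE is the ratio of that value to the same quantity for input RNA, and RNA RPKM was taken from it. The submitters' processing notes name HISAT2 2.1.0, featureCounts, DESeq2 and CASAVA, together with hg38, a human build, for these mouse samples. The annotation and any use of strand in counting are not stated there.

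Read numbers were fitted to the RPKM steps, within 0.002 reads, for each of 10536 genes with footprints in 2 or more libraries. In input RNA this held for 99.7% of 15988 genes. The smallest whole numbers that fitted were taken, so reads that share a divisor can be too low. The implied RNA lengths of Ifitm3 and Parp14 were 226 and 4653 bases, below their coding lengths of 411 and 5451. Their input reads were thus likely too low. Read sums, the footprint filter, intervals of pooled ratios and limma-voom rest on recovered reads, and RPKM and TE do not. The main test was limma 3.58.1 (R 4.3.3) on log2(RPKM + 1) with a trended prior variance, two-sided, with Benjamini-Hochberg adjustment over all genes tested and a threshold of 0.05; such fold changes understate low genes. Footprints and TE were tested for genes with at least 20 CPM of recovered reads in at least 2 libraries, and RNA for genes with at least 1 RPKM in at least 2. The alternatives were other pseudocounts, filters and scalings, a replicate block, limma-voom and leaving out each library. Fits were tested on simulated counts with a set spread between libraries and no shift between replicates of a group. Those tests therefore do not show how the fits behave where replicates differ as they do here.

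Values in every library are given for the 15 members with the highest mean RNA and for the 5 other members with the largest RNA differences. Context and marker genes outside the 3 with the highest RNA in their list were named after their values were seen. The members and lists were chosen with earlier results of these data known, so their counts are descriptions. Promoter windows came from RefSeq (GRCm38.p6). Python 3.11.15 was used for recovery and plots.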

Additional observations from a re-analysis of the deposited data

How the results depend on the processing

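The RNA difference of every tested member kept its sign under every alternative that tested it. Calls of Stat2 and Oas1a ended with library medians aligned and with limma-voom on input reads, that of Oas3 with quantile normalization and that of Stat2 also with a replicate block (adjusted p = 0.0686, limma). The median RNA log2 difference of the members was 1.20, and was 0.82 on the genes past the footprint filter, 1.28 with limma-voom, 1.10 with medians aligned, 1.12 without a filter, 1.36 and 0.85 with pseudocounts of 0.25 and 4, 1.03 with quantile normalization, and 1.12 to 1.28 with 1 library left out. On the genes past the footprint filter 3882 genes and 20 members were called, in place of 6497 and 33, since fewer were tested. With 1 library left out the RNA calls ranged from 3624 (without WT replicate 2) to 5800 (without KO replicate 1), with 3942 without WT replicate 1.

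Footprint calls over all genes numbered 68, and 0 without a filter, 109 with a pseudocount of 4, 120 with a stricter filter and 0 to 1089 with 1 library left out (331 without KO replicate 1, 1089 without KO replicate 2, 0 without either WT library). The members called then ranged from 0 to 3 and their median from 0.21 to 0.90. TE calls numbered 0, and 33 with the interaction on reads, 1 with a pseudocount of 4, 1 with a stricter filter and 0 to 700 with 1 library left out (149 without KO replicate 1 and 700 without KO replicate 2). The members called in TE then ranged from 0 to 3 and their median from -0.67 to -0.20. The cause of these shifts was not tested.

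Signs of small differences turned. The footprint difference of Ifitm3 became 0.067 with limma-voom, 0.022 with medians aligned and 0.14 with quantile normalization, and that of Trim30a 0.050 with limma-voom and 0.043 with quantile normalization. The TE difference of Ifih1 became 0.029 with medians aligned and 0.040 with a pseudocount of 4, that of Oasl2 -0.19 with the interaction, that of Cmpk2 0.0026 with quantile normalization and that of Parp14 0.025 with a pseudocount of 4. With 1 library left out, footprint differences ran from -0.19 to 0.88 for Adar, -0.45 to 1.90 for Cmpk2, -1.06 to 0.25 for Ifi35, -0.42 to 0.35 for Ifitm3, -0.30 to 0.93 for Irf9, -0.44 to 1.13 for Oas1a, -0.15 to 0.81 for Stat2 and -0.16 to 0.017 for Trim30a. TE differences ran from -0.65 to 0.0087 for Adar, -1.58 to 0.79 for Cmpk2, -0.22 to 0.30 for Dhx58, -0.38 to 0.17 for Ifih1, -1.23 to 0.029 for Irf9, -0.73 to 0.82 for Oas1a and -0.41 to 0.53 for Stat2.

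KO and WT replicates share numbers in the labels, with no source given for the numbers. Deviations of same-numbered libraries correlated at 0.02 in footprints, -0.14 in RNA and 0.0083 in TE, so the numbers were not taken as pairs. With a replicate block, 32 genes were called in footprints, 5607 in RNA (32 members, without Stat2) and 0 in TE. With crossed numbers, a pairing added after the data were seen, 7036 were called in RNA (33 members). The fits on input reads and on both kinds of reads were likewise added after the data were seen. Depth limits the footprints: the median member had 10 and 13 reads in KO-labelled libraries and 20 and 9 in WT, so footprint and TE differences of most members could not be measured closely.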
